A study of Drosophila melanogaster with 4 samples.

Results

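The Cpr and Tweedle genes of Drosophila melanogaster encode structural proteins of the insect cuticle. They were chosen by their symbols, as every gene whose symbol is Cpr followed by a digit or begins with Twdl. This gave 96 of the 14794 genes listed, 70 Cpr and 26 Tweedle, and no measured value entered the choice of single genes, although the families were proposed with earlier results of these data known. Tb, a Tweedle gene filed under another symbol, fell outside the rule. Of the 96 genes, 6 lie on chromosome arm 2L, 22 on 2R, 35 on 3L, 25 on 3R and 8 on X.

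RNA was sequenced from 4 embryonic cell populations sorted by flow cytometry, with 1 library each. Caudal visceral mesoderm (CVM) cells, the migrating precursors of the longitudinal gut muscles, and the cells sorted as not CVM came from embryonic stages 10 to 13. Hemocytes (HC), the migratory blood cells of the embryo, and the cells sorted as not hemocytes came from stages 12 to 16. No genotype, strain or sorting marker is named in the labels. What was analysed here were 2 tables of the authors' own comparisons, named CVM and HC, which call their conditions q1 and q2. No label ties either name to a sorted population, so each fold below is q2 relative to q1, a negative value means higher in q1, and the FPKM columns of the conditions were not used. Folds are therefore given without expression levels, and a large fold may rest on few reads.

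Cuticle is laid down on the apical face of epithelia such as the epidermis, the tracheal tubes, the foregut and the hindgut. Proteins of the Cpr family carry the Rebers and Riddiford consensus, a domain that binds chitin, and fill the procuticle between chitin fibres. Tweedle proteins are a second family of insect cuticle proteins, and dominant alleles of TwdlD and Tb give a shortened, stout larva and pupa. Neither blood cells nor gut muscle precursors are known for making cuticle.

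Markers of the sorted cells were mostly higher in q1. In the authors' deposited table for CVM, this held at 2-fold or more for 7 of 7 caudal visceral mesoderm markers, 5 of 5 somatic muscle markers and 5 of 9 hemocyte markers. For HC it held for 8 of 9 measured hemocyte markers, 1 of 7 caudal visceral mesoderm markers and 0 of 5 muscle markers. Markers of cuticle-forming tissues leaned to q2. The 9 epidermal markers had a median log2 fold of 0.78 in CVM (range -0.94 to 1.38) and 1.64 in HC (-1.13 to 2.03) in the authors' deposited tables. The 8 tracheal markers had 0.54 (-2.57 to 1.20) and 1.61 (-2.20 to 2.25), and the 5 fore- and hindgut markers 0.98 (-0.16 to 1.38) and 2.05 (1.63 to 2.48). None of the epidermal, tracheal or gut markers was listed at 0 in either condition. By the 2-fold rule the epidermal list gave 0 genes in q1 and 2 in q2 in CVM, and 1 and 6 in HC. The tracheal list gave 3 and 3 in CVM, and 1 and 6 in HC. Of all measured genes, 17.6% passed in q1 and 4.58% in q2 of CVM, and 13.3% and 35.4% in HC. The median over all measured genes was 0.00 (0.0047) in CVM and 0.62 in HC, so a fold of 0.62 in HC is the middle of that table. These populations are bulk samples, so fewer cells of a type and less RNA per cell cannot be told apart.

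Most Cpr and Tweedle genes had no fold that the authors tested. A gene is called measured here when the authors' status for it was OK, meaning tested, and its fold was finite. This held for 35 of 96 members in CVM (36.5%, against 64.8% of all genes) and 33 in HC (34.4%, against 68.2%). The status NOTEST, which Cuffdiff gives to genes with too few reads to test, covered 52.1% of members in CVM and 62.5% in HC, against 31.4% and 24.1% of all genes. A fold of 0 with a statistic of 0, whatever the status, was listed for 22 members in each table (22.9%, against 15.6% of all genes in CVM and 15.7% in HC). For 12 members this was so in both tables: Cpr12A, Cpr47Ea, Cpr47Ed, Cpr50Ca, Cpr62Ba, Cpr72Eb, Cpr76Ba, Cpr92A, Cpr97Ea, TwdlH, TwdlR and TwdlS.

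Members listed at 0 in 1 condition have an infinite fold and are counted without one. In CVM, 22 members were listed at 0 in q2 and 4 in q1, so 84.6% of these were at 0 in q2, against 74.3% of all genes so listed. In HC, 13 were listed at 0 in q2 and 8 in q1, or 61.9% against 42.6%. A call here means the status OK with the authors' q-value under 0.05. Only 10 of the 26 listings in CVM and 2 of the 21 in HC had the status OK, and the rest could not be called. None of these 47 listings was called, where 0.763% of all genes so listed, tested or not, were called in CVM and 5.25% in HC. Among their p-values, 10 of 26 in CVM and 17 of 21 in HC equalled 0.159, 0.0787 or 0.0416. These are the one-sided normal tails that a Poisson count of 1, 2 or 3 gives when divided by its own error, matched here within 0.01 on the squared quantile. The read counts themselves were not used here.

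**Figure D1:**
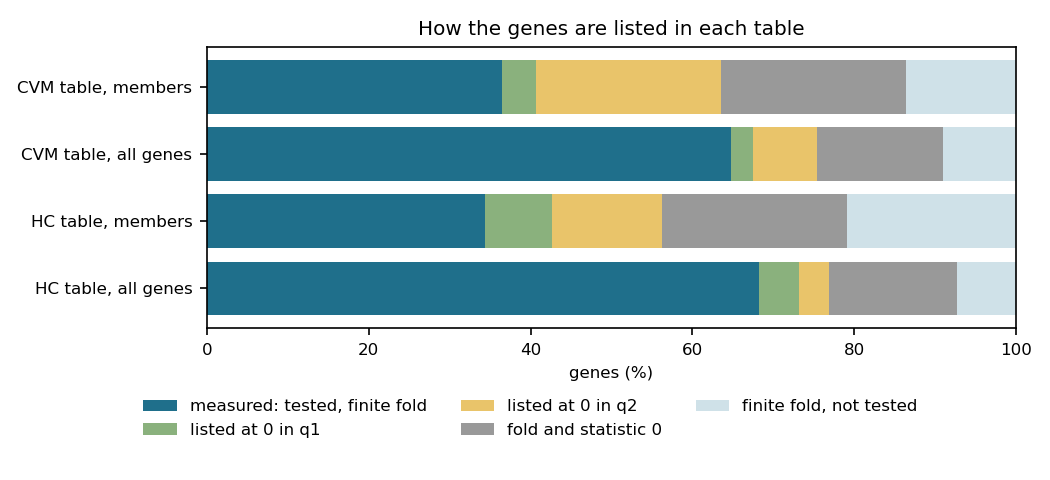
Share of genes (%, horizontal axis) by how each of the 2 tables lists them, for the 96 Cpr and Tweedle members and for all 14794 genes. The dark blue part, genes with a tested and finite fold, is 36.5% of members in CVM and 34.4% in HC, against 64.8% and 68.2% of all genes.

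Among the 35 measured members in the CVM table the folds ran from -5.05 to 1.53, with a median of -1.79. The median was -0.74 over the 7 members with an implied error of at most 1 log2 unit and -1.02 over finite folds of any status. Of the 35, 21 (60.0%) were higher in q1 by 2-fold or more, against 17.6% of all measured genes. At least 2-fold higher in q2 were 3 of 35 (8.57%), against 4.58%. Of the 7 members with an implied error of at most 1 log2 unit, 1 was among the 21. Tested members listed at 0 in q2 numbered 9, so reads of 1 condition could be enough to pass Cuffdiff's filter. The shares therefore describe the measured members alone. The 13 members with an untested finite fold had a median of -0.05. The error of each fold was taken from the authors' own statistic (fold divided by statistic). It had a median of 1.17 log2 units over the members and 0.54 over all genes, and wide errors carry more genes past 2-fold. Among the 2140 genes whose error lay within the members' range, 39.2% passed 2-fold on the q1 side and 11.2% on the q2 side. Their median error was 0.99, below the 1.17 of the members, so the wide errors were not fully matched. Folds of 12 of the 35 were larger than 2 errors.

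The authors' call, a q-value under 0.05 that compares 2 libraries and not conditions, took 6 of these 35 members in CVM. All 6 were higher in q1, or 17.1%, where 8.49% of all measured genes were called in that direction and 0.762% in the other. Among the 2140 genes in the members' error range these shares were 11.4% and 0.0467%. Since only genes that passed Cuffdiff's filter could be called, these shares describe the measured members alone.

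The called members in CVM were 3 Tweedle and 3 Cpr genes. TwdlF (FBgn0037224) lies on 3R from 72744 to 74040 in build BDGP5. Its log2 fold was -5.00 with an error of 0.93 and a q-value of 4.24e-06 in the authors' deposited table. Its neighbour TwdlG (3R, 74439 to 76518) had -4.20 with an error of 1.02 and a q-value of 0.00099. TwdlN (3R, 22457595 to 22458680) had -3.66 with an error of 1.21 and a q-value of 0.0326. These 3 genes belong to separate parts of the same arm, TwdlF and TwdlG at the low end of its coordinates and TwdlN in the large Tweedle cluster.

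Of the Cpr genes called in CVM, Cpr66D (3L, 8633574 to 8636684) had the largest fold, -5.05 with an error of 1.58 and a q-value of 0.0188, in the authors' deposited table. Cpr64Ad (3L, 4215387 to 4216414) had -3.42 with an error of 1.05 and a q-value of 0.0156. Cpr51A had -3.51 with an error of 1.22 and a q-value of 0.0452, and it shares its listed locus with CG30197, so reads of the pair may not have been separable. Just past the authors' threshold lay Cpr47Eg at -3.30, with a q-value of 0.0724. No measured member higher in q2 was called, and the largest there was Cpr65Ay at 1.53 with an error of 1.67, less than 1 error from 0.

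**Figure D2:**
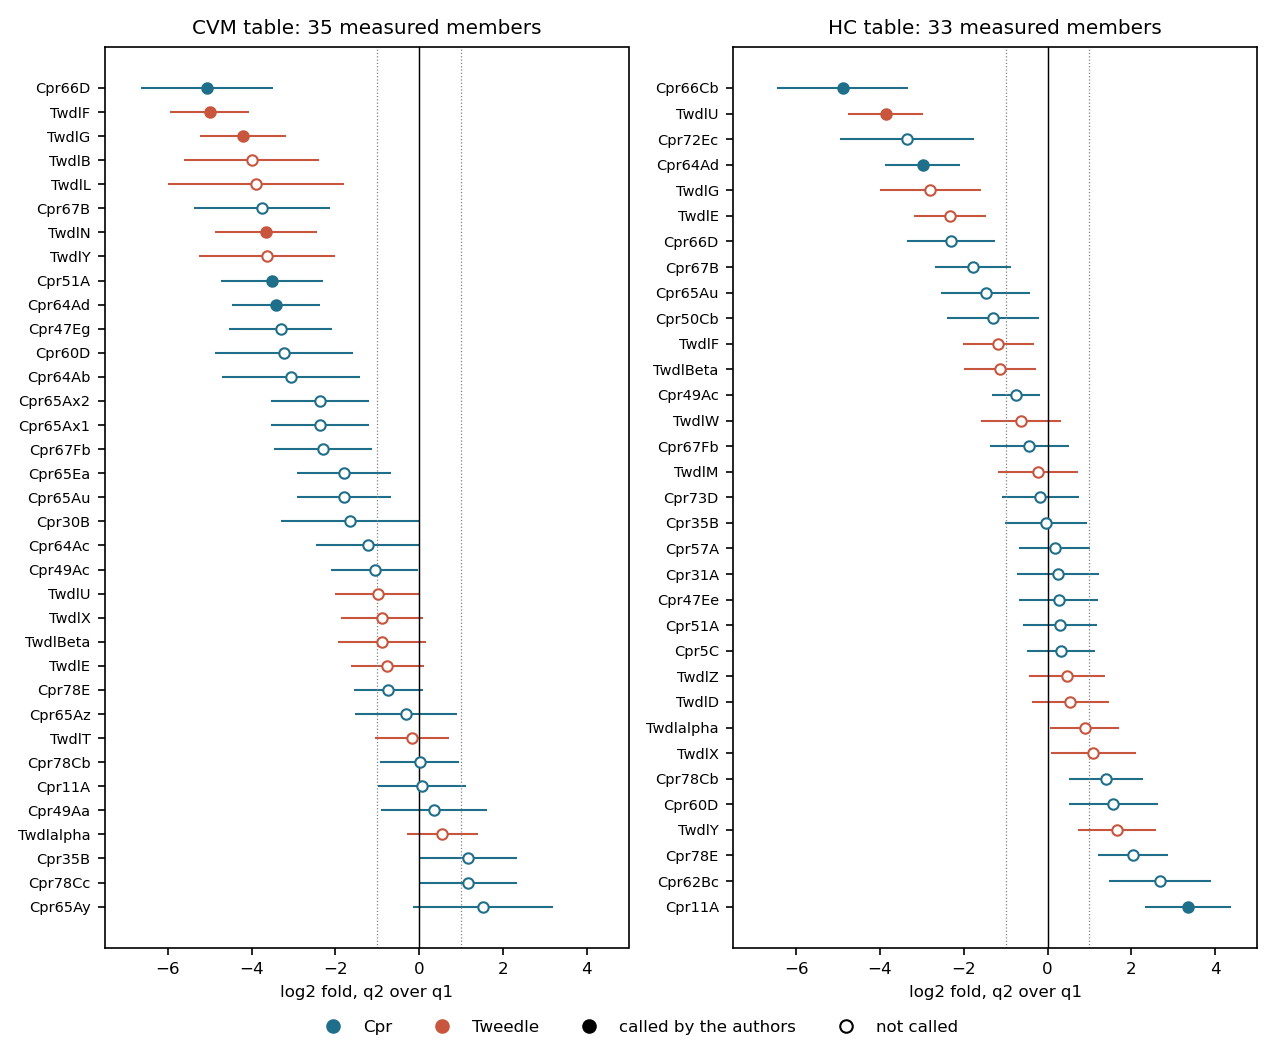
Log2 fold of q2 over q1 (horizontal axes) for each measured member, in order of size, in the CVM table (left, 35 members) and the HC table (right, 33 members). Points are the authors' folds, bars are 1 error implied by the authors' statistic on either side, filled points were called at a q-value under 0.05, and dotted lines mark 2-fold. In CVM the 6 filled points lie between -5.05 and -3.42, while in HC 3 lie below 0 and Cpr11A lies at 3.35.

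In the HC table the measured members were spread around 0. Their 33 folds ran from -4.89 to 3.35 with a median of -0.17, which is 0.79 below the median of that table. Of the 33, 12 (36.4%) were higher in q1 by 2-fold or more, against 13.3% of all measured genes and 13.1% of the 8756 genes with errors in the members' range. At least 2-fold higher in q2 were 7 of 33 (21.2%), against 35.4% and 37.3%. As in CVM, these shares describe the measured members alone. The median error was 0.93 for members, 0.72 for all genes and 0.74 for the 8756, which are most of the 10088 measured genes. That set therefore did not match the wider errors of the members. Folds of 10 of the 33 were larger than 2 errors.

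The authors called 4 of the 33 in HC, 3 of them higher in q1 (9.09%, against 5.91% of all measured genes) and 1 higher in q2 (3.03%, against 6.84%). Among the 8756 genes in the members' error range 5.29% and 5.78% were called in these directions. Cpr66Cb (3L, 8329772 to 8331699) had -4.89 with an error of 1.57 and a q-value of 0.0217 in the authors' deposited table. TwdlU (3R, 69328 to 71233), which lies beside TwdlF, had -3.87 with an error of 0.89 and a q-value of 0.000407. Cpr64Ad had -2.98 with an error of 0.89 and a q-value of 0.0124. It was the only member called in both tables, and it was higher in q1 in both.

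Cpr11A (FBgn0030394, chromosome X, 12381006 to 12383484) was the called member higher in q2, at 3.35 with an error of 1.02 and a q-value of 0.0147 in the authors' deposited table for HC. In CVM the same gene had 0.07 with an error of 1.06. Next to it in HC stood Cpr62Bc at 2.69 (q-value 0.118) and Cpr78E at 2.04 (q-value 0.0817), neither called. On the q1 side, TwdlE at -2.34 had a q-value of 0.0508, just past the threshold. Cpr64Ab and TwdlV, both tested and listed at 0 in q2, had q-values of 0.0605 and 0.0909 in that table.

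Many Cpr and Tweedle genes stand in tandem clusters, and 68 of the 96 fell into 14 clusters of at least 3 members with gaps of at most 20 kb. The largest holds 12 Tweedle genes from TwdlM to TwdlD (3R, 22444845 to 22466779). In CVM, 9 of the 12 were higher in q1 and none in q2. Direction counts by cluster take folds of any size and status and members listed at 0, with no share over all genes beside them. TwdlB had -4.00, TwdlL -3.90 and TwdlN -3.66 in the authors' deposited table, and TwdlM, TwdlP, TwdlO, TwdlK, TwdlJ and TwdlD were listed at 0 in q2. Only TwdlN was called. The remaining TwdlH, TwdlR and TwdlS had a fold of 0.

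In HC the 5 finite folds of this cluster lay between -0.80 and 0.55, around a median of -0.16, where the median of the table was 0.62, with TwdlM at -0.23 and TwdlD, whose dominant alleles change body shape, at 0.55 in the authors' deposited table. The errors of those 2 folds were 0.96 and 0.91, and the folds of TwdlB, TwdlL and TwdlN had the status NOTEST. The other 7 members had a fold of 0, and none was listed at 0 in 1 condition. The difference between the tables was not tested for this cluster.

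A second Tweedle cluster, TwdlU to TwdlV (3R, 69328 to 81316), was higher in q1 in both tables wherever it was measured. In CVM its folds were -0.99 for TwdlU, -5.00 for TwdlF and -4.20 for TwdlG in the authors' deposited table, and TwdlV had a fold of 0. In HC they were -3.87, -1.17 and -2.80 in the same order, with TwdlV listed at 0 in q2. The member with the largest fold differed, TwdlF in CVM and TwdlU in HC.

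The Cpr64A genes (3L, 4207838 to 4216414) were also higher in q1 in both tables for 4 of 4 members. Cpr64Aa had -0.47 in CVM and -1.70 in HC, Cpr64Ac -1.22 and -2.22, and Cpr64Ad -3.42 and -2.98 in the authors' deposited tables. Cpr64Ab had -3.05 in CVM and was listed at 0 in q2 of HC. The HC folds of Cpr64Aa and Cpr64Ac and the CVM fold of Cpr64Aa had the status NOTEST. The 3 Cpr67F genes lay on the q1 side in both tables as well, with Cpr67Fb at -2.30 and -0.43, and none was called.

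The remaining clusters varied in direction. The 7 Cpr47E genes gave 5 higher in q1 and none in q2 in CVM, 4 of them listed at 0 in q2, and 1 higher in q1 and 3 in q2 in HC. For the 8 Cpr49A genes the counts were 4 and 1 in CVM, and 1 and 5 in HC. The 4 Cpr76B genes had a fold of 0 in CVM without exception. The 3 Cpr65E genes were higher in q1 in CVM, and 2 of them in HC, while the 3 Cpr78C genes were higher in q2 in CVM, and 2 of them in HC. Of the 7 genes from Cpr65Au to Cpr65Az, 6 were higher in q1 and 1 in q2 in CVM, and 3 each way in HC. Cpr65Ax1 and Cpr65Ax2 had equal folds in each table (-2.37 in CVM and 0.69 in HC), and reads of these near-identical copies may have been divided between them. Genes at separate loci also had near-equal folds and errors in CVM. These were Cpr65Au and Cpr65Ea (-1.79, error 1.13), and Cpr35B and Cpr78Cc (1.17, error 1.17). Why these values coincide was not tested.

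Near neighbours on X, TwdlX, TwdlY, TwdlZ and Twdlalpha, share 1 listed locus with CG9634 and CG32568, so reads of these genes may not have been separable. In CVM they had -0.89, -3.64, -0.05 and 0.55 in the authors' deposited table, and in HC 1.10, 1.65, 0.46 and 0.88. None was called in either table.

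**Figure D3:**
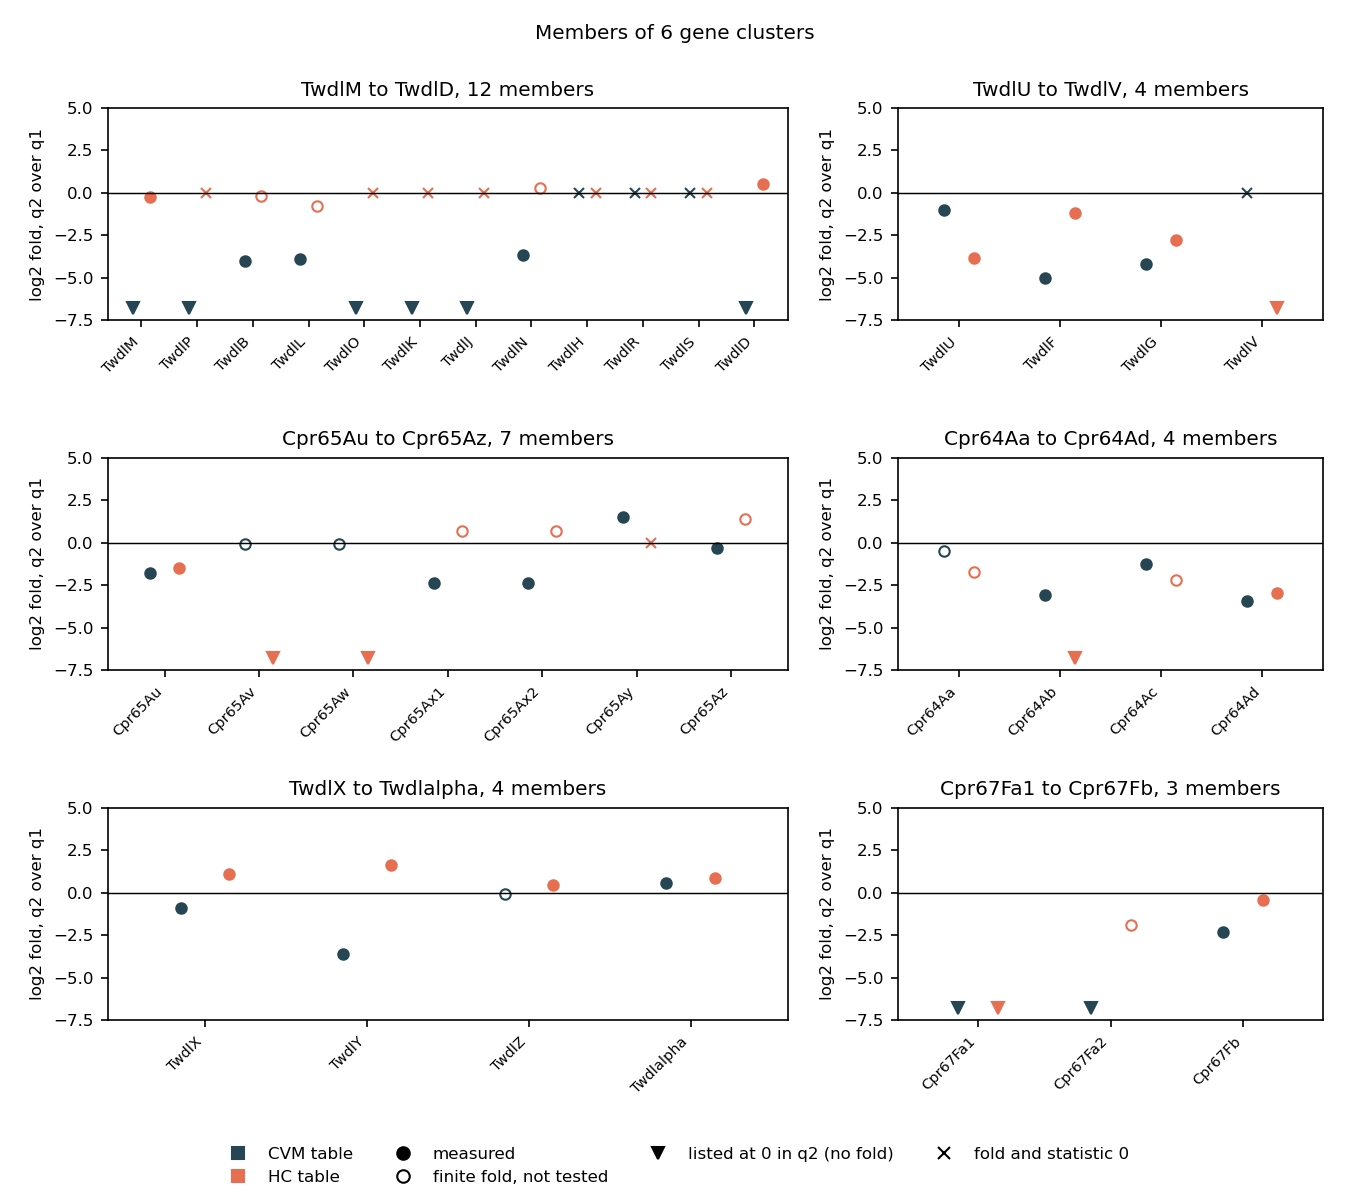
Log2 fold of q2 over q1 (vertical axes) for the members of 6 clusters, with the CVM table in dark blue and the HC table in orange; genes stand in chromosome order except the 4 on X, which share 1 listed locus. Filled circles are measured, open circles are finite folds that were not tested, crosses are folds of 0, and triangles at the bottom mark genes listed at 0 in q2, which have no fold. In the 12-gene Tweedle cluster the CVM values lie at -3.66 or below or at the bottom edge, apart from 3 at 0, while the HC values lie between -0.80 and 0.55.

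By family, the Tweedle genes were mostly on the q1 side of CVM. Counting every fold of any size and status, 20 of 26 Tweedle genes were higher in q1, 1 was higher in q2 and 5 had a fold of 0. The exception was Twdlalpha, at 0.55 with an error of 0.85. In HC the counts were 13, 6 and 7. For the 70 Cpr genes they were 39, 14 and 17 in CVM, and 30, 25 and 15 in HC. These counts include untested folds and members listed at 0 in 1 condition, and the same counts over all genes are not given here. Of all genes listed at 0 in 1 condition, 74.3% were at 0 in q2 in CVM and 42.6% in HC. Over measured genes the median fold was -2.31 for 12 Tweedle and -1.79 for 23 Cpr genes in CVM, and -0.43 for 12 and -0.05 for 21 in HC. The difference between the families was not tested. Of the 20 members measured in both tables, 11 were on the q1 side of both at any size (55.0%, against 22.8% of all genes), 5 on the q1 side of CVM alone (25%, against 26.3%), 1 on the q1 side of HC alone (5.0%, against 6.81%) and 3 on the q2 side of both (15%, against 44.1%).

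Finite folds were also listed for members that were not tested. In CVM, 13 members had a finite fold without a test, between -3.22 (TwdlW) and 2.27 (Cpr73D), and 3 of them passed 2-fold on the q1 side and 2 on the q2 side. In HC, 20 members did, between -2.22 (Cpr64Ac) and 1.43 (Cpr49Aa), with 4 and 3. Their medians were -0.05 and -0.37.

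Over both tables, 20 members were measured in each. In q1 of both, 6 of 20 were higher by 2-fold or more (30.0%, against 5.46% of all 8927 genes measured in both). These were Cpr64Ad (-3.42 in CVM and -2.98 in HC), Cpr65Au (-1.79 and -1.48), Cpr66D (-5.05 and -2.31), Cpr67B (-3.75 and -1.78), TwdlF (-5.00 and -1.17) and TwdlG (-4.20 and -2.80) in the authors' deposited tables. None was at least 2-fold higher in q2 of both (2.9% of all genes). These shares cover only genes that passed Cuffdiff's filter in both tables. On opposite sides, q1 of CVM and q2 of HC, 2 of 20 passed 2-fold (10.0%, against 4.16%), and none the other way round (0.202%). With HC centred on its median these counts were 8 in q1 of both and 1 on opposite sides. The labels do not say whether q1 stands for sorted or remaining cells in either table. Markers of the sorted cells were at least 2-fold higher in q1 for 7 of 7 measured in CVM. The 5 somatic muscle markers were so as well. In HC this held for 8 of 9 measured hemocyte markers, and 1 was at least 2-fold higher in q2.

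Folds of 13 of these 20 lay within 2 combined errors of each other, where the error of the difference joins those of both tables. Lower in CVM by more than that were 6 (30.0%, against 11.3% of all genes measured in both): TwdlY, Cpr60D, TwdlF, Cpr51A, Cpr11A and Cpr78E. The medians of the tables differ by -0.61, and with each table centred on its own median, a scale added after the data were seen, Cpr11A (-2.67) and Cpr78E (-2.16) came within 2 errors and 4 of 20 stayed beyond them (20%, against 6.30%). For TwdlF the difference, CVM minus HC, was -3.83 with an error of 1.26, and for Cpr11A -3.28 with an error of 1.47. TwdlU went the other way, at 2.88 with an error of 1.35, the 1 of 20 that did (5.0%, against 3.39% of all genes). These errors come from the authors' statistic on 1 library per condition, so they do not measure variation between replicate samples.

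**Figure D4:**
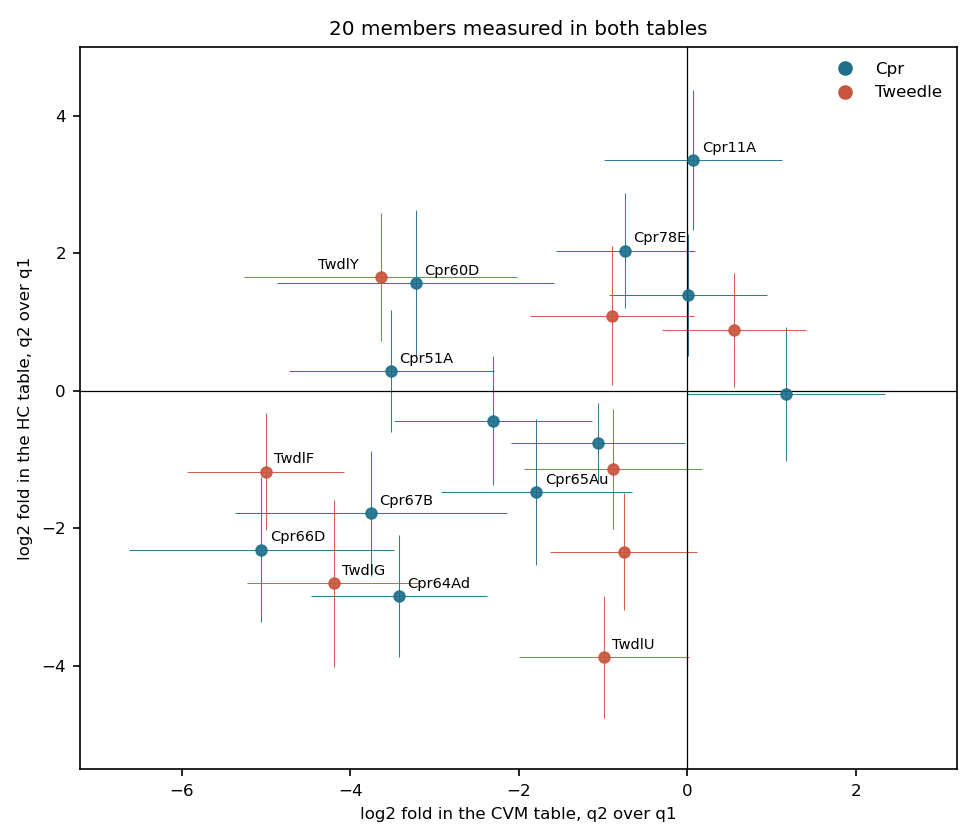
Log2 fold of q2 over q1 in the CVM table (horizontal axis) and the HC table (vertical axis) for the 20 members measured in both, with bars of 1 implied error. Cpr64Ad, Cpr65Au, Cpr66D, Cpr67B, TwdlF and TwdlG, at the lower left, are at least 2-fold higher in q1 of both tables, and Cpr11A stands at 0.07 in CVM and 3.35 in HC.

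Cuticle genes outside both families were taken from lists of known genes. Of all measured genes, 17.6% passed 2-fold on the q1 side and 4.58% on the q2 side in CVM. In HC these shares were 13.3% and 35.4%. Calls took 8.49% and 0.762% of measured genes in CVM, and 5.91% and 6.84% in HC. The counts of each list below stand against these shares, and the medians against table medians of 0.00 and 0.62. Of 35 other cuticle protein genes matched, such as the Lcp, Ccp84A and Edg genes, 14 were measured in CVM, 10 of them at least 2-fold higher in q1 and none in q2, with 3 called and a median of -2.11. The largest called were Ccp84Ag at -6.43 and Lcp65Ag2 at -4.55 in the authors' deposited table. In HC 9 were measured, 3 higher in q1 and 4 in q2 by that rule, with 2 called and a median of -0.89. There Vajk4 (listed as CG30101) had -4.39 and Ccp84Ag -2.59, while Edg84A had 2.07 and was not called.

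Of 13 measured chitin synthesis and assembly genes, 6 passed 2-fold on the q1 side of CVM and none on the q2 side, with 5 called and a median of -0.99. Gasp, a chitin-binding protein of the tracheal lumen, had -2.57 and obst-A, a chitin-binding protein of the cuticle, -2.26 in the authors' deposited table. In HC the median was 1.08, with 3 of 15 higher in q1 and 8 in q2. Among the called genes there mmy, which makes the precursor of chitin, had -2.40, and verm, a chitin deacetylase, 1.36 in the authors' deposited table. Gasp and verm also stand in the tracheal list.

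Of 11 measured apical matrix genes with a zona pellucida domain, 6 passed 2-fold on the q1 side of CVM and none on the q2 side, with 2 called and a median of -1.28. There dyl had -5.38 in the authors' deposited table. In HC none of 12 was 2-fold higher in q1 and 7 were in q2, with 2 called and a median of 1.38; pio had 2.15. Chitinase and Idgf genes had 5 of 11 higher in q1 and 1 in q2 of CVM (2 called, median -0.94), led by Idgf3 at -3.97 in the authors' deposited table, and 3 and 5 of 13 in HC (1 called, median -0.03).

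Tanning genes, which cross-link and colour cuticle, had no call in either table. They gave 1 of 8 higher in q1 and 0 in q2 of CVM (median -0.21), and 1 and 5 of 14 in HC (median 0.47). That HC median lies below the 0.62 of all measured genes, and 35.4% of those passed 2-fold in q2 of HC. Genes of ecdysone synthesis and response, the steroid pathway that times moults, had 5 of 14 higher in q1 and 1 in q2 of CVM, 4 called, median -0.43. The nuclear receptor genes ftz-f1 and Eip78C had -3.68 and -3.06 in the authors' deposited table. In HC they gave 3 of 14 each way, 3 called at a finite fold and a median of 0.01, with nvd at -3.94 and sad (shared locus) at 2.54. A further called gene there, Eip93F, was listed at 0 in q2.

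Transcription factors chosen for known roles in cuticle or in cuticle-bearing tissues, Hox genes included, mostly had positive folds in CVM. None of 9 passed 2-fold on the q1 side and 6 did on the q2 side, 6 were called and the median was 1.17. Of these grh, a factor required for embryonic cuticle, had 1.38 and the Hox gene Ubx (shared locus) 1.36 in the authors' deposited table, while CrebA had -0.24 and was not called. In HC 8 of 10 were higher in q2 and 1 in q1, with 8 called and a median of 1.78. The called gene on the q1 side was CrebA, at -1.43. The epidermal list also holds grh. Epidermal and tracheal markers had medians above 0 in both tables, and their part in the folds of the Cpr and Tweedle genes was not tested.

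**Figure D5:**
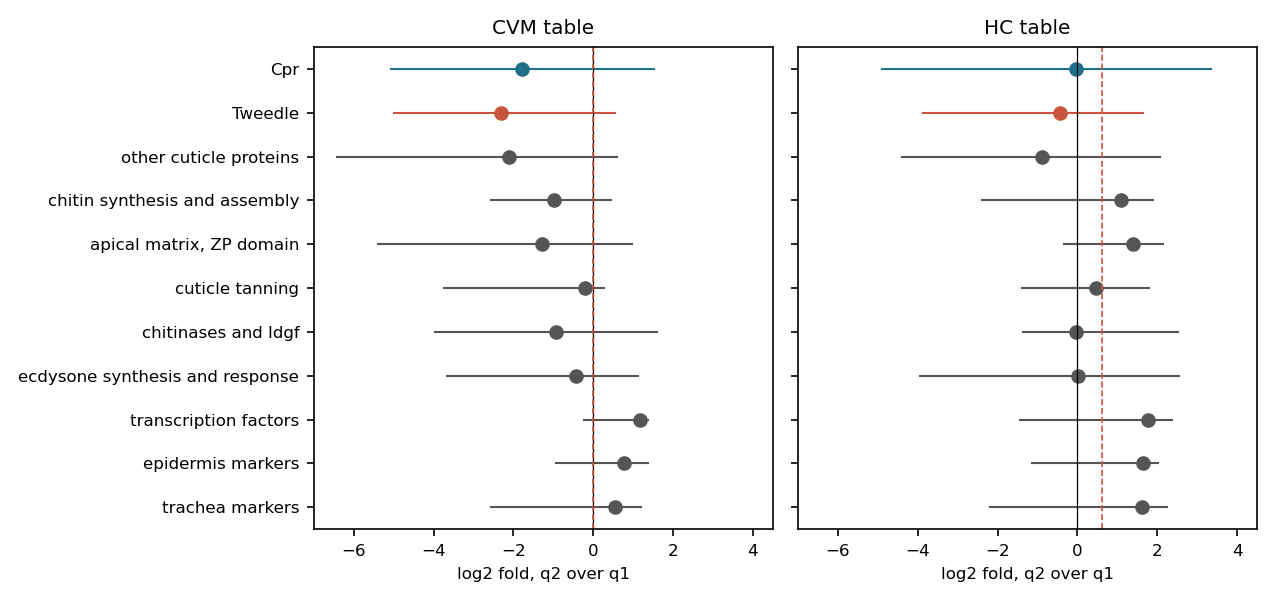
Median log2 fold of q2 over q1 (points) and the range from the lowest to the highest measured gene (lines) for Cpr, Tweedle and the other gene lists, in the CVM table (left) and the HC table (right); the dashed line is the median of all measured genes. In CVM the medians of Cpr (-1.79), Tweedle (-2.31) and other cuticle proteins (-2.11) lie below 0, and that of the transcription factors (1.17) above it.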

How the data were processed

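RNA of 4 sorted populations, 1 library each, was compared by the authors in 2 tables. Cuffdiff, Cufflinks 1.3.0, TopHat 1.3.3 and Bowtie 0.12.7 were used on build BDGP5, per the submitters' processing notes. The annotation and depth are not given in the sources used here. Per the file headers, the deposited CVM folds are log2 values and the deposited HC folds natural log values, converted here to log2. The p-value and q-value are the authors', per the file headers. Calls were set here as the status OK with that q-value under 0.05. The deposited statistic was used as a score, and so was the HC q-value, since 568 of its values exceed 1. The 4 FPKM columns were not used, since q1 and q2 match no label. Genes with a fold and statistic of 0 were not counted as measured.

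No test was run, since 1 library per group allows none: a 2-fold rule stands beside the authors' calls across all genes. The implied error is fold over statistic. Starts are given counted from 1. List symbols were also matched through gene IDs. The members and lists were chosen with earlier results of these data known. Clusters, the comparison over genes in the members' error range and locus sharing were defined after the data were seen. Named genes are the called members, those at least 2-fold in both tables, those with the largest folds, and up to 2 of each list per direction; cluster members, members near the authors' threshold and members listed at 0 were added after their values were seen. Python 3.11.15, pandas 2.3.3 and scipy 1.17.1 were used. The size rule was tried on simulated folds drawn with the errors of all measured genes, which does not cover the wider errors of the members. Alternatives were other fold and q thresholds, centring, genes with their own locus, and an error limit of 1 log2 unit.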

Additional observations from a re-analysis of the deposited data

Results flagged for a closer look

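At least 2-fold in both tables but in opposite directions were 2 of 20 members measured in both, against 4.16% and 0.202% of all genes in the 2 possible ways. With HC centred on its median 1 was left, TwdlY. Cpr60D had a log2 fold of -3.22 in CVM, with an implied error of 1.64, and 1.57 in HC, with an error of 1.06. TwdlY had -3.64 in CVM, with an error of 1.62, and 1.65 in HC, with an error of 0.94, and it shares its listed locus with 5 other genes. Neither was called in either of the authors' deposited tables, and their differences, CVM minus HC, of -4.79 (error 1.96) and -5.29 (error 1.87) exceed 2 combined errors. The conditions have 1 library each, so the difference was not tested across samples.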

How the results depend on the processing

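Of 46 values recomputed under another setting, 31 were counted as unchanged, and none of the 46 changed sign. Counts so labelled stayed within 1.5 times the reported count, and single genes within the implied error. Medians were not held to 1.5 times in log2 units. The HC median of -0.17 was counted as unchanged at -0.63 over genes with their own locus. It was also counted so at -0.05 with an error of at most 1 log2 unit. Requiring an implied error of at most 1 log2 unit, which only 7 of 35 measured members meet in CVM and 23 of 33 in HC, left 1 member past 2-fold on the q1 side of CVM and 0 on the q2 side, and 6 and 3 in HC. It left 1 called member in CVM and 2 in HC, and a CVM median of -0.74. Over finite folds of any status the CVM median was -1.02. With a 3-fold rule, 0 members were higher in q2 in CVM and 4 in HC. Centring HC on its median also left 4 in q2, with a member median of -0.79; over genes with their own locus it was -0.63. A q-value under 0.01 left 2 calls in CVM and 1 in HC, and one under 0.1 gave 8 in HC. Why these values moved, 15 of the 46 by that count, was not tested. Shares of all genes under the changed settings are not given here, so these member counts cannot be set against the whole of each table. Depth is not given, and most members had no tested fold. No paired analysis was possible because each group has 1 library.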
